A study of Mus musculus with 4 samples.

Results

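The ubiquitin-specific proteases, encoded by the Usp genes, are the largest family of enzymes that take ubiquitin off proteins. The genes described here are all those whose symbol is Usp followed by a number and at most 1 small letter and that have at least 1 annotated protein-coding transcript. The symbol pattern matched 50 genes, and with Usp18 and the Y-linked Usp9y left out by the rule 48 are members, out of 55536 annotated genes and 22028 protein-coding genes. They were measured in 4 libraries, labelled biological replicates 1 to 4, of total RNA depleted of ribosomal RNA from the cytosolic fraction of C57BL/6J bone-marrow-derived macrophages. Each culture first received 100 ng/ml of lipid A, the moiety of lipopolysaccharide recognised by Toll-like receptor 4, for 12 h, was then kept without it for 12 h, and met the same dose again for 15 min. There was 1 group and no untreated control, so no value here is a response to lipid A, and the questions were how abundant each member's RNA was, which transcripts carried it, and how far the libraries and the quantifications differed. No genotype other than the strain is given, sex and age were not collected and 1 donor record covers all 4 libraries. P-values therefore cover no more than the spread among these libraries, which may be technical.

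A ubiquitin-specific protease has a papain-like catalytic domain in which a cysteine and a histidine, set in 2 conserved boxes, cut the bond between ubiquitin and its substrate. Removing ubiquitin can spare a protein from the proteasome, return a receptor from the endosome to the surface, or end a signal carried by a ubiquitin chain. In macrophages the pathway from Toll-like receptor 4 to NF-kB runs through ubiquitin chains on TRAF6 and on the kinases' scaffold proteins, and several members act on it. Levels are in TPM, which divides reads by transcript length and gives every library the same sum, and means are given ± SD (n = 4 libraries). Members were tested against a mark of 1 TPM. In such bulk RNA, fewer cells of a type and less RNA per cell cannot be told apart.

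The cysteine box is the sequence that defines the family, and it was located in the annotated coding sequences (GENCODE M21, reading frame only) as the window of 16 codons with the highest score against the family's residue consensus. The score gives weight to a cysteine at the catalytic position, so a count of such codons is not independent of the search. All 48 members had a transcript with a complete coding sequence, and in 47 of them the catalytic position held a cysteine codon, TGC in 27 and TGT in 20. The exception was Usp39, a splicing factor long known to lack the catalytic cysteine. The boxes shown are those of 3 of the 4 members with the highest RNA level (Usp25, Usp15 and Usp8), of the member without the cysteine (Usp39), of those classed as inactive on other grounds (Usp53 and Usp54), and of close relatives whose RNA levels lay far apart (Usp25 and Usp28, Usp22, Usp27x and Usp51). Each is read 5′ to 3′ on the coding strand, with the codon at the catalytic position in capitals.
Usp25: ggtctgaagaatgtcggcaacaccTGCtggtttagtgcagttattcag
Usp28: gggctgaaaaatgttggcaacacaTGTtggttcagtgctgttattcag
Usp15: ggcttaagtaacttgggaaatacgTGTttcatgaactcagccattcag
Usp8: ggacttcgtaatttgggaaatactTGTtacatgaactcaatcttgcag
Usp22: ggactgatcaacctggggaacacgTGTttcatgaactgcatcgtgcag
Usp27x: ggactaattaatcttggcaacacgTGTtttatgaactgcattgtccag
Usp51: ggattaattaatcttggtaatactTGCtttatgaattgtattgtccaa
Usp39: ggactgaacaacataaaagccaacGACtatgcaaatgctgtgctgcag
Usp53: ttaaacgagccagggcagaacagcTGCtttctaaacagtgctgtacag
Usp54: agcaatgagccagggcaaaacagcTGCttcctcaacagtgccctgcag
In these 48 bases Usp25 and Usp28 differed at 7 positions, Usp22 and Usp27x at 8, Usp27x and Usp51 at 8, and Usp22 and Usp51 at 15. Usp53 and Usp54 differed at 10. The windows of Usp53 and Usp54 scored 15 and 17 of a possible 28 against the consensus, and that of Usp39 scored 16. Usp25 and Usp28 scored 18, and the remaining members between 22 and 28.

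Library totals ran from 30660511 to 48223718 expected counts. Protein-coding genes held 31.7%, 25.3%, 30.0% and 36.6% of the TPM in replicates 1 to 4. The summed TPM of the 48 members was 407, 337, 431 and 511 in the same order, highest in replicate 4 and lowest in replicate 2, the libraries where that share was highest and lowest. With TPM rescaled to protein-coding genes the sums were 1282, 1333, 1439 and 1394, and the median coefficient of variation of the tested members was 10.4%, against 17.8% on the deposited scale. Of 10 macrophage markers all lay above 1 TPM, with Lyz2 highest at 3430 ± 684. Summed markers of B cells, erythroid cells and stromal cells reached at most 0.08, 0.22 and 0.24 TPM in any library and those of granulocyte precursors at most 1.80, while the T-cell list, with 2 of 6 genes tested, held Cd4 at 15.0 ± 4.40 TPM with Cd8a at 0.0075 ± 0.00957. Whether Cd4 came from the macrophages was not tested.

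Most members were expressed above the mark in these macrophages. Of the 48 members, 43 had at least 10 summed expected counts and were tested, and 34 of these lay above 1 TPM, 6 lay below and 3 were called in neither direction. These calls are from limma with Benjamini-Hochberg adjustment over 16262 genes, at a threshold of 0.05. Among all genes tested 58.2% lay above and 35.1% below, and among the 12636 protein-coding genes tested 71.2% lay above and 22.4% below, so the members' count lay near what protein-coding genes gave in these libraries. The median of the tested members was 6.50 TPM, against 4.85 TPM for tested protein-coding genes, and 24 members exceeded the protein-coding median. The calls depend on the quantification and the scale. In a second deposited quantification 27 members lay above, 11 below and 5 had no call. With TPM rescaled to protein-coding genes 41 members lay above 1 TPM and 2 below, Usp50 and Usp44. Among all genes, rescaling lowered the number below the mark from 5712 to 3453 and raised the number above it. In the second quantification fewer of all genes lay above the mark, and more below it, than in the first. Among all genes the numbers above and below were then nearly equal, whereas most members still lay above. The direction of these shifts was thus not particular to the members. Whether their size was particular to the members was not tested. Without replicate 2 the number of members below on the deposited scale was 3 and the number without a call 5. Without replicate 3 or replicate 4 the number of members without a call was 6. The level was concentrated: Usp25 alone held 13.2% of the members' summed TPM, the 4 highest members 37.2% and the 10 highest 64.6%.

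**Figure D1:**
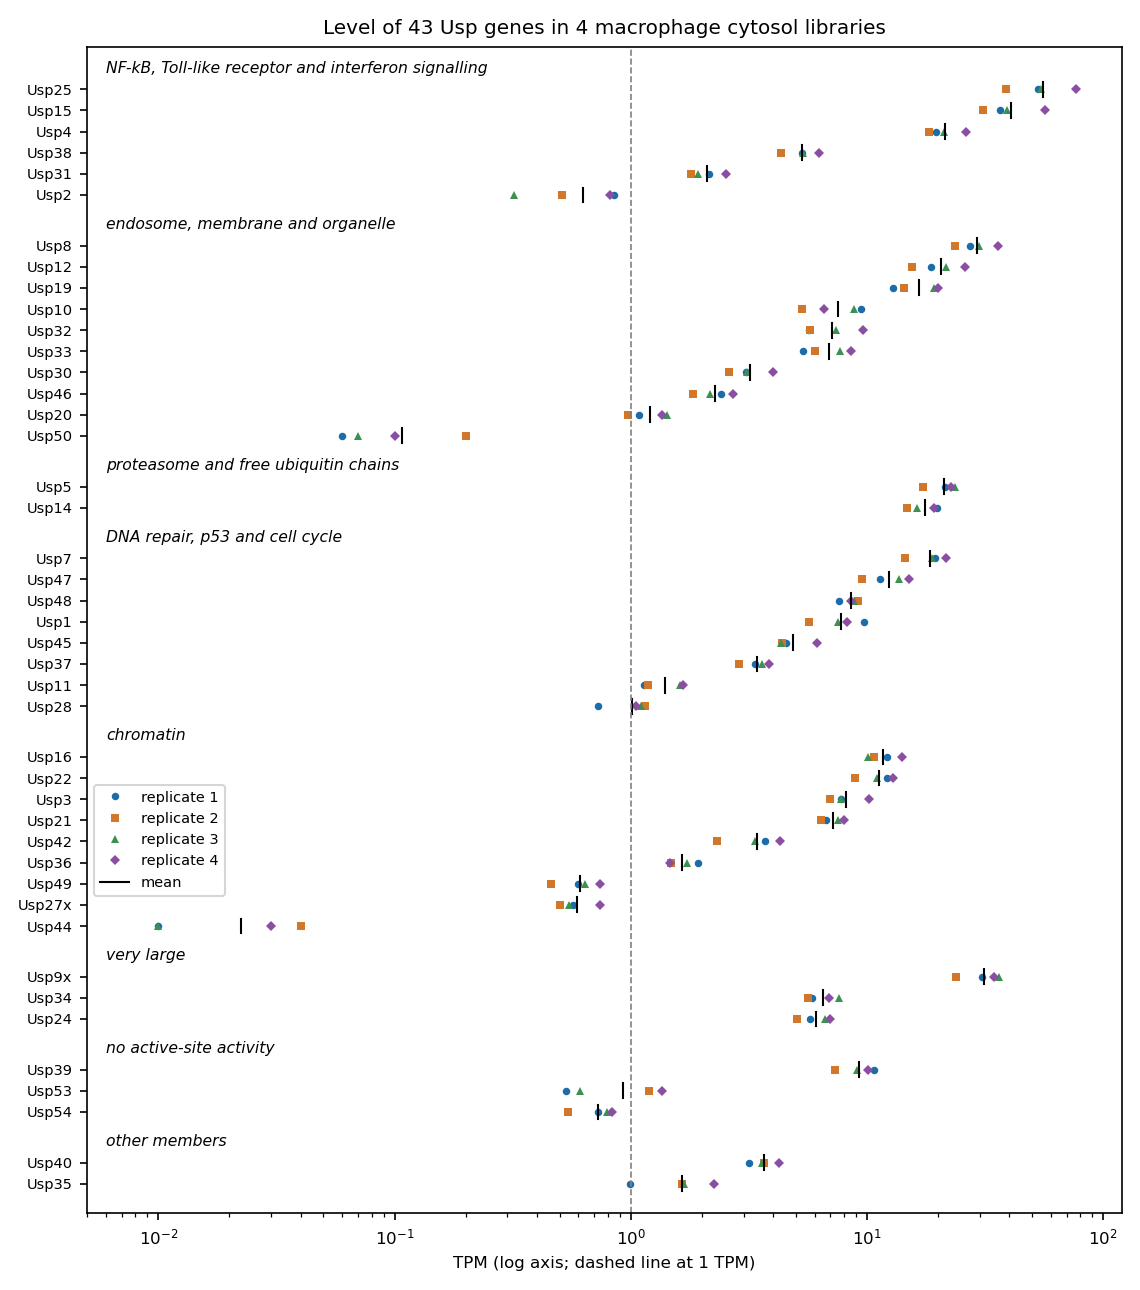
TPM of the 43 tested Usp genes on a log axis, 1 point per library and a bar at the mean, grouped by the role of the protein; the dashed line marks 1 TPM. Usp25 is highest at a mean of 55.6 TPM and Usp44 lowest at 0.0225 TPM, and replicate 4 is the highest library for 29 of the 43. With TPM rescaled to protein-coding genes replicate 4 is the highest for 7. These counts were not made over all genes.

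The signalling members held 29.8% of the members' summed TPM over 6 genes, with 5 above 1 TPM and 1 below. Usp25, which in mouse cells removes ubiquitin from TRAF proteins downstream of Toll-like receptor 4, is on chromosome 16 (mm10 chr16:77013706-77116780, plus strand). It stood at 52.9, 38.6, 54.3 and 76.4 TPM in replicates 1 to 4, higher than any other member in each library. Replicate 4 was highest and replicate 2 lowest. Its log2 distance above the mark was 5.62 (SE 0.163, adjusted p = 3.44e-10), and 93.1% of tested protein-coding genes had a lower mean. Usp15, an enzyme of TGF-beta receptor complexes and of the interferon-inducing ligase TRIM25 (chr10:123105006-123196995, minus strand), followed at 36.4, 31.0, 39.1 and 56.5 TPM. That order held in each library although the ranges of the genes overlapped. Usp4, the close relative of Usp15 that also acts on TGF-beta receptor I (chr9:108347853-108392545, plus strand), stood at 19.6, 18.3, 21.1 and 26.2 TPM, below Usp15 in all 4 libraries. That order depends on the transcripts counted. On transcripts with a complete coding sequence only, Usp4 averaged 18.1 ± 4.01 TPM and Usp15 3.17 ± 0.584. Usp38, tied to interferon signalling, averaged 5.32 ± 0.805 TPM, and Usp31, tied to NF-kB, had 2.15, 1.79, 1.93 and 2.53 TPM. Usp2 was the member of this list below the mark, with 0.85, 0.51, 0.32 and 0.82 TPM (adjusted p = 0.0202), on 280 counts in all. Replicates 2 and 3 were its lowest libraries, and its call was lost without either of them. Rescaled to protein-coding genes it averaged 2.00 and lay above the mark, and on the deposited posterior mean TPM it stood at 0.91 with no call (adjusted p = 0.492).

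The endosome, membrane and organelle members held 22.4% of the summed TPM over 10 genes, 8 of them above 1 TPM, 1 below and 1 without a call. Usp8, which deubiquitinates receptors and the ESCRT machinery at endosomes (chr2:126707328-126759297, plus strand), led with 27.4, 23.5, 29.9 and 35.7 TPM. Usp12, a small enzyme that needs the WD-repeat partner Wdr48 (chr5:146734809-146795006, minus strand), had 18.6, 15.5, 21.6 and 26.1 TPM. Usp19, which has a form anchored in the endoplasmic reticulum (chr9:108490602-108502337, plus strand), had 12.9, 14.3, 19.2 and 19.9 TPM. In each of these 3 genes replicate 4 was highest, and the lowest value was still far above the mark. Usp10, partner of the stress-granule protein G3bp1 (chr8:119910360-119957560, plus strand), had 9.42, 5.31, 8.82 and 6.59 TPM, with replicate 4 below replicates 1 and 3. Usp32, tied to the Golgi and late endosome, averaged 7.10 ± 1.83 TPM, and Usp33, tied to receptor recycling, had 5.38, 6.02, 7.66 and 8.55. Usp30, which sits in the outer mitochondrial membrane and opposes mitophagy, averaged 3.19 ± 0.576 TPM. Usp46, the relative of Usp12, had 2.41, 1.84, 2.16 and 2.71 TPM, all below any value of Usp12. Usp20, the relative of Usp33, had 1.08, 0.97, 1.42 and 1.36 TPM and no call (adjusted p = 0.153 for above). On the deposited posterior mean TPM it stood at 1.91 and was called above (adjusted p = 5.55e-05), and in the second quantification at 0.476 and was called below (adjusted p = 0.000907). Its deposited intervals, 1.37 to 2.56, 1.16 to 2.06, 1.59 to 2.41 and 1.61 to 2.75 TPM in replicates 1 to 4, lay wholly above the mark.

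Usp50 was the member of this list below the mark, with 0.06, 0.20, 0.07 and 0.10 TPM on 36 counts. It overlaps Usp8 over 50202 bases on the opposite strand, and whether counting used strand is not given in the sources used here, so its reads and those of Usp8 may not have been told apart. All TPM of Usp50 lay on transcripts with no complete coding sequence. In all, 8 members overlap a gene of at least 1 TPM on the opposite strand, and 2 members overlap another protein-coding gene on the same strand. Gm20388, at 12.4 TPM, overlaps Usp10 over 46720 bases of its span, and Gm20517, at 0.47 TPM, overlaps Usp49 over 53172 bases. How reads were divided between Usp10 or Usp49 and these genes was not tested.

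Both tested members that serve the proteasome and free ubiquitin chains lay above 1 TPM. Usp5, which takes apart ubiquitin chains not attached to a protein (chr6:124815019-124829484, minus strand), had 21.3, 17.3, 23.5 and 22.7 TPM. Usp14, the ubiquitin-trimming enzyme docked on the proteasome, had 19.8, 14.8, 16.3 and 19.2 TPM. The ranges of Usp5 and Usp14 overlapped, with Usp14 lower in each library. Usp13, the relative of Usp5, was listed at 0 counts in all 4 libraries. The limit that 3 counts allow for it was 0.0198, 0.0143, 0.0128 and 0.0174 TPM in replicates 1 to 4. Such limits cover counting error only, and the deposited intervals of Usp13 reach higher, to 0.172, 0.122, 0.111 and 0.143 TPM, all far below Usp5.

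Among the 10 members tied to DNA repair, p53 and the cell cycle, 7 of 8 tested lay above 1 TPM and 1 had no call. Usp7, which stabilises the p53 ligase Mdm2 (chr16:8689595-8792308, minus strand), had 19.3, 14.5, 18.9 and 21.5 TPM. Usp47, its relative with a role in base-excision repair (chr7:112023504-112111661, plus strand), had 11.4, 9.55, 13.6 and 15.0 TPM. Usp48, which acts on the NF-kB subunit RELA and on histone H2A in human cells, had 7.64, 9.15, 8.80 and 8.58 TPM, a coefficient of variation of 7.56%. Rescaled to protein-coding genes it averaged 28.3 ± 5.90. On deposited TPM it was 1 of 4 members highest in replicate 2. Usp1, the enzyme of FANCD2 and PCNA, averaged 7.78 ± 1.67 TPM and Usp37, tied to cyclin A, 3.42 ± 0.422. Usp45, which acts on ERCC1, had 4.54, 4.35, 4.34 and 6.12 TPM, with replicate 4 apart from the rest on deposited TPM. On count-based scaling its replicate 4 lay near replicate 1, at 41.4 and 40.2. Usp11, tied to BRCA2, was the lowest called above, at 1.14, 1.18, 1.61 and 1.67 TPM (adjusted p = 0.0239), a call lost without replicate 3 or replicate 4. In the second quantification it was called below, at 0.520 TPM (adjusted p = 0.00135). Usp28, an enzyme of MYC and a relative of Usp25, had 0.73, 1.15, 1.11 and 1.05 TPM and no call, with replicate 1 below the mark and the others above it. It was called above on the posterior mean TPM (1.71, adjusted p = 0.000313) and below in the second quantification (0.467, adjusted p = 0.00556). Usp26 had 4 counts in all and 0.02 TPM in replicate 1 alone, and Usp29 was listed at 0 counts in each library, with deposited upper bounds of 0.214 to 0.331 TPM.

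Of the 10 chromatin members 9 were tested, 6 of them above 1 TPM and 3 below. Usp16, which deubiquitinates histone H2A (chr16:87454703-87483517, plus strand), had 12.2, 10.7, 10.1 and 14.1 TPM. Usp22, the histone deubiquitinase of the SAGA coactivator (chr11:61151785-61175055, minus strand), had 12.2, 8.85, 11.0 and 12.9 TPM. Usp3, also an H2A enzyme (chr9:66514637-66593142, minus strand), had 7.75, 6.99, 7.75 and 10.2 TPM. The ranges of Usp16 and Usp22 overlapped, and their order changed between libraries. Usp21, an H2A enzyme as well, averaged 7.15 ± 0.745 TPM. Usp42, an H2B enzyme in human cells, had 3.70, 2.31, 3.37 and 4.29 TPM, and its nucleolar relative Usp36 had 1.93, 1.48, 1.73 and 1.47, lower in every library. Usp49, an H2B enzyme, was below the mark with 0.60, 0.46, 0.64 and 0.74 TPM (adjusted p = 0.00607). Usp27x, which shares subunits with Usp22, had 0.57, 0.50, 0.55 and 0.74 TPM (adjusted p = 0.0038). Both were highest in replicate 4, and rescaled to protein-coding genes they averaged 1.97 and 1.91 and lay above the mark. Usp44, another H2B enzyme, tied to the mitotic checkpoint, had 0.01, 0.04, 0.01 and 0.03 TPM on 14 counts in all. Usp51, the other relative that shares those subunits, was listed at 0, with a counting limit of between 0.0192 and 0.0297 TPM per library and deposited upper bounds of 0.0188 to 0.0289 TPM.

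The 3 very large members all lay above 1 TPM. Usp9x, a stabiliser of MCL1 and other short-lived proteins (chrX:13071498-13173328, plus strand), had 30.8, 23.7, 36.1 and 34.3 TPM and the second most counts after Usp25, 47107. Usp34, an enzyme of axin in Wnt signalling (chr11:23306895-23490560, plus strand), had 5.87, 5.60, 7.63 and 6.90 TPM. Usp24 (chr4:106316213-106441322, plus strand) had 5.72, 5.03, 6.66 and 6.94 TPM. Usp9x thus exceeded the other two in every library, and the ranges of those overlapped. Their annotated coding sequences run to 7662 bases in Usp9x, 10746 in Usp34 and 7851 in Usp24.

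Of the members long classed as catalytically inactive, Usp39 lay above the mark, Usp54 below it and Usp53 had no call. Usp39, part of the splicing machinery (chr6:72318678-72345184, minus strand), had 10.7, 7.29, 9.04 and 10.1 TPM. Usp54 had 0.73, 0.54, 0.79 and 0.83 TPM (adjusted p = 0.0415), a call lost when any 1 library was left out and turned to above when TPM was rescaled (2.33). Usp53 had 0.53, 1.19, 0.61 and 1.36 TPM, so that replicates 2 and 4 lay above the mark and replicates 1 and 3 below it. In the remaining list Usp40 had 3.17, 3.68, 3.59 and 4.24 TPM, and Usp35 had 0.99, 1.65, 1.68 and 2.24 TPM (adjusted p = 0.0102). Usp35 lost that call without replicate 4. Usp43 was listed at 0 in all libraries, with a counting limit of between 0.0148 and 0.0229 TPM per library, and its deposited intervals reach higher, to between 0.109 and 0.167 TPM.

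The order of neighbouring levels was mostly not resolved. Ranked by mean TPM, the 43 tested members gave 42 neighbouring pairs, of which 13 kept their order in all 4 libraries and 3 had ranges that did not overlap. Those 3 were Usp45 over Usp40, Usp27x over Usp50, and Usp50 over Usp44. From Usp4 at 21.3 TPM to Usp19 at 16.6 TPM no neighbours kept the same order in every library. The deposited interval bounds, whose level is not given in the sources used here, stand beside a posterior mean TPM and do not enclose the deposited TPM of every member: for Usp20 and Usp28 they lay above it in all 4 libraries. They lay closer together than the libraries did for most members: in 32 of 43 the interval of the highest library lay wholly above that of the lowest. This count was not made over all genes, so it shows nothing particular to the members. For Usp25 the bounds were 73.7 to 76.6 TPM in replicate 4 and 37.2 to 39.2 TPM in replicate 2.

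The deposited files hold a second quantification, made directly from the read files, in which the members were lower by about the same amount as other genes. Over the 36 members with at least 1 TPM on average in either quantification the median log2 difference, second over first, was -1.41, against -1.40 over all 10329 genes compared. Usp10 alone was called lower by more than a log2 difference of 1 (log2 difference -1.82 ± 0.424, limma treat adjusted p = 0.0149), where 4.28% of all genes were called lower and 2.22% higher. No member was called higher by limma treat, nor at an unadjusted p under 0.05, at which 17 were lower. The share of all genes at that unadjusted threshold was not computed, and their median of -1.40 itself lay beyond the limit of 1. With both quantifications rescaled to protein-coding genes the members' median was 0.03 against 0.00 for protein-coding genes, and no member was called in either direction, where 1.01% of genes were called lower and 1.90% higher. At an unadjusted p under 0.05 limma treat also gave 0 members on the rescaled values. Usp10 was then the lowest at -0.40 ± 0.130, while Usp3 was the highest at 0.57 ± 0.095, followed by Usp14 at 0.41 ± 0.070. The call on Usp10 was also lost without replicate 3 or without replicate 4.

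**Figure D2:**
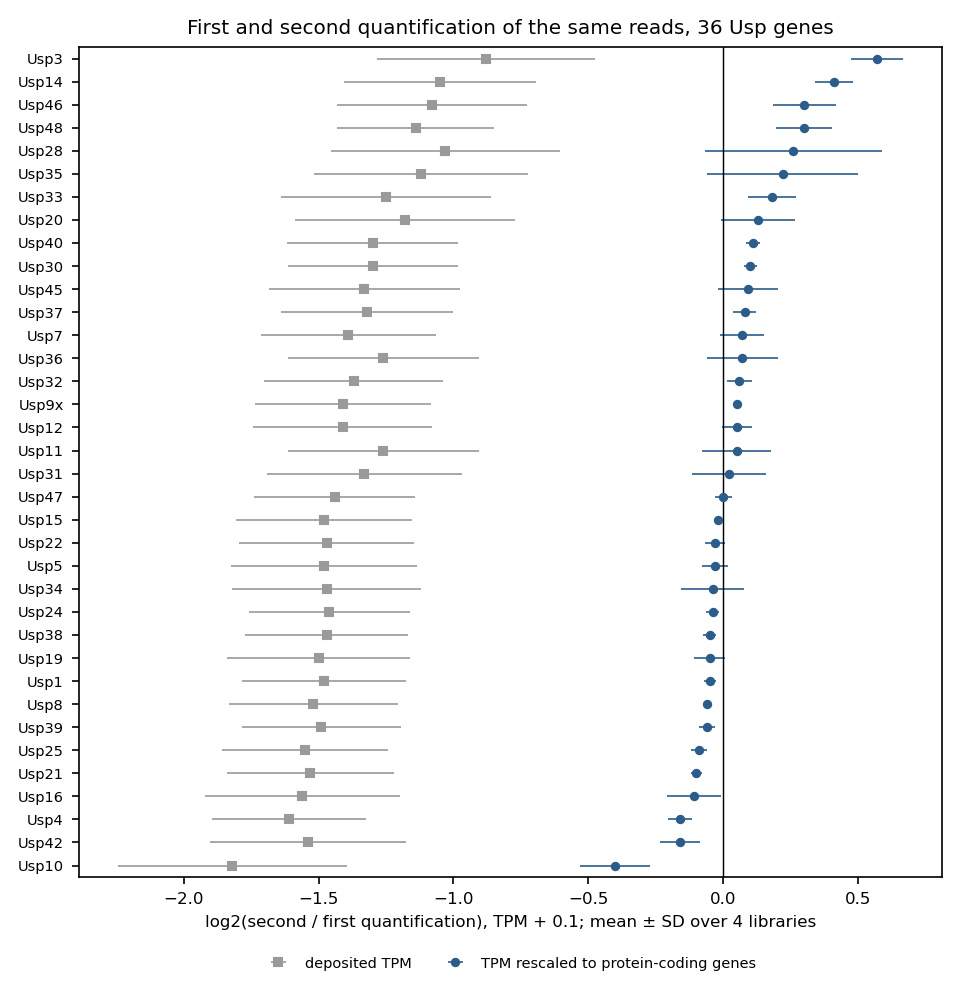
Log2 ratio of TPM, second over first quantification, for 36 Usp genes as mean ± SD over 4 libraries; grey squares are deposited TPM and blue circles TPM rescaled to protein-coding genes. On the deposited scale the values centre on -1.41, and after rescaling they lie between -0.40 for Usp10 and 0.57 for Usp3.

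The first transcript table divided each gene's TPM among its annotated transcripts, 342 for the 48 members. Over all members, transcripts with a complete coding sequence held 74.3% ± 2.19 of the TPM and 87.8% ± 1.01 of the counts. Retained-intron transcripts held 13.6% ± 1.80 of the TPM and 4.97% ± 0.660 of the counts, and protein-coding transcripts with an incomplete annotated coding sequence 7.36% ± 0.502 and 4.06% ± 0.378. The shares by TPM and by counts differ because short transcripts weigh more in TPM. Of the 36 members of at least 1 TPM, the leading transcript was complete and coding in 33, and it was the same transcript in the second quantification in 35. The leading transcript held a median of 74.1% of the gene's TPM.

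**Figure D3:**
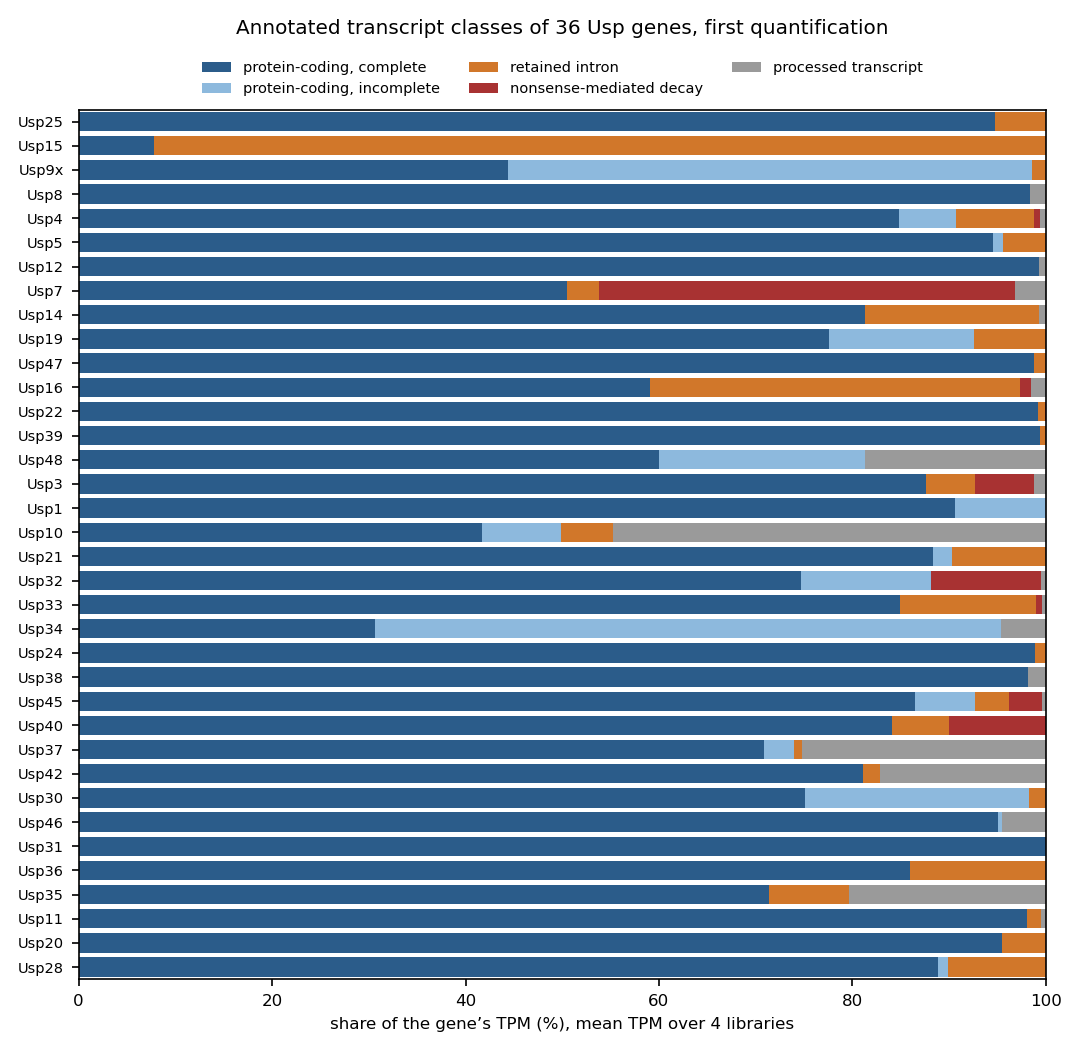
Share of the mean TPM of each of 36 Usp genes by class of annotated transcript, genes ordered by level from the top. Usp15 stands out with 92.2% on retained-intron transcripts, Usp7 with 42.95% on a transcript annotated for nonsense-mediated decay, Usp10 with 44.8% on processed transcripts, and Usp9x and Usp34 with 54.2% and 64.7% on incomplete coding transcripts.

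In 32 of the 35 members with both kinds annotated and at least 1 TPM, protein-coding transcripts held more TPM than the gene's other transcripts, against 91.4% of all 7771 genes compared (limma, adjusted p below 0.05). In 1 member the others held more, against 4.12% of all genes, and in Usp7 and Usp10 there was no call. In the second quantification coding transcripts of Usp10 were called above (log2 0.48, adjusted p = 0.0374), and Usp3 had no call (log2 0.01, adjusted p = 0.949). Without replicate 3 the number without a call was 4. The median share on other transcripts was 7.43% for the members and 4.53% for all genes. The exception was Usp15, where 91.0%, 92.5%, 91.2% and 93.6% of the TPM in replicates 1 to 4 lay on transcripts annotated as retained introns (log2 coding over other -3.51 ± 0.249, adjusted p = 4.55e-07). In the second quantification this share was 94.7% ± 0.696. By counts, 77.7% of the reads assigned to Usp15 were on such transcripts.

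The Usp15 result rests on a pair of partial transcripts. Usp15-208, of 9 exons and 1587 bases, had 17.8, 15.6, 19.1 and 29.3 TPM, and Usp15-209, of 17 exons and 2603 bases, had 13.7, 10.2, 14.6 and 21.6 TPM. The coding transcript Usp15-201 had 2.75, 1.56, 2.85 and 2.57 TPM, lower than either in every library. Together the exons of Usp15-208 and Usp15-209 cover all 2856 coding bases of Usp15-201, and 99.0% of Usp15-208 and 91.6% of Usp15-209 lie in exons of the coding transcripts Usp15-201 and Usp15-211. The sequence particular to them is 16 bases in Usp15-208 and 219 bases of retained intron at the end of Usp15-209, so most of their sequence is shared with the coding transcripts and the division of reads among them is an estimate. With complete coding transcripts only, Usp15 stood at 3.17 ± 0.584 TPM, in place of 40.8 ± 11.0 TPM over all its transcripts, still above the mark. The sequence at the exon end of Usp15-209 (chr10:123124454-123124543, minus strand) is shown because it is where that transcript leaves the coding ones: the first 30 bases, in small letters, are exon shared with Usp15-201, and the 60 bases in capitals are retained intron, which begins with the letters GT of a splice donor.
Usp15-209: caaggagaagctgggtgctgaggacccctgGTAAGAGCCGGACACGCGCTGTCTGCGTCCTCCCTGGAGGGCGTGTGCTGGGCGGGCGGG
The coding transcripts Usp15-201 and Usp15-211 differ by an exon of 87 bases (chr10:123153041-123153127, minus strand), given in capitals between 15 bases of each neighbouring exon of Usp15-211, because it sets the length of the coding sequence at 2943 bases in Usp15-211 and 2856 in Usp15-201.
Usp15-211: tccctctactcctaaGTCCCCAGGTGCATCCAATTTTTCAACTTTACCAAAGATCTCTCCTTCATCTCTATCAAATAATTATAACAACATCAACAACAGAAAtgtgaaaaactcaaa

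**Figure D4:**
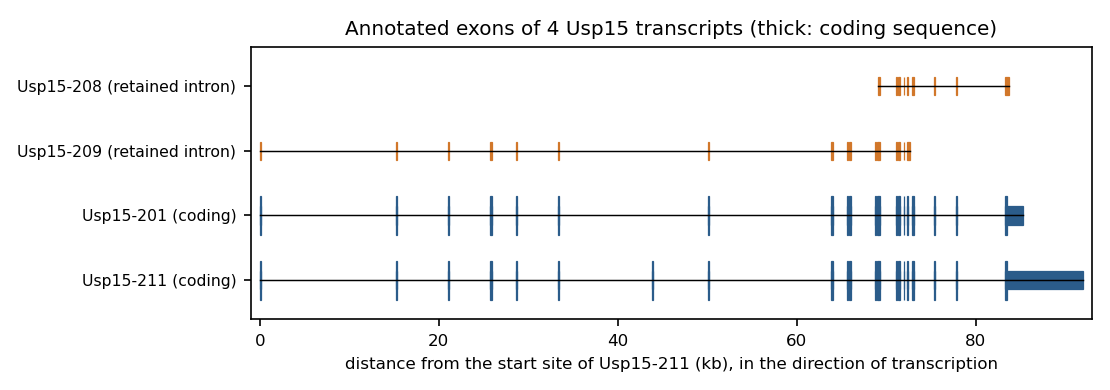
Annotated exons of 4 Usp15 transcripts by distance in kb from the start site of Usp15-211; orange marks retained-intron transcripts, blue coding ones, and thick boxes coding sequence. Usp15-209 follows the coding transcripts from the start through 17 exons and Usp15-208 follows them through 9 exons near the end, with an overlap between the 2.

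For Usp7 the TPM was divided about evenly between transcripts that are coding and those that are not. The leading transcript, Usp7-206, annotated for nonsense-mediated decay with a coding sequence of 276 bases, had 8.63, 6.27, 6.81 and 9.93 TPM. The coding transcripts Usp7-207 and Usp7-208 had 5.47, 3.64, 5.87 and 3.93 TPM, and 4.61, 2.59, 5.09 and 6.23 TPM. Usp7-206 exceeded each of them in every library, and the 3 together held most of the gene's TPM. The share on other transcripts was 49.9% ± 6.61 (log2 coding over other 0.01 ± 0.379, adjusted p = 0.968). In the second quantification Usp7-208 led with 33.5% ± 6.33 of the TPM and Usp7-206 held 27.8% ± 4.70. Of the 4488 bases of Usp7-206, 98.3% lie in exons of Usp7-207 or Usp7-208, so this division is likewise an estimate. It differs from Usp7-208 in a stretch of 139 bases, which is not a multiple of 3, absent from the end of 1 exon. That exon of Usp7-208 (chr16:8711994-8712192, minus strand, 199 bases) is printed with the absent part in capitals. The capital part begins with the letters GT.
Usp7-208: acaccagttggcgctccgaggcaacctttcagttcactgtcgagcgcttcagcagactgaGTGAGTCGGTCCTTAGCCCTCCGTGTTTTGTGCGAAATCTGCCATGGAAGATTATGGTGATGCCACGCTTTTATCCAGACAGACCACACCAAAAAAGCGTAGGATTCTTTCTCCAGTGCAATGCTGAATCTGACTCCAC

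In Usp10 and Usp9x short annotated fragments held much TPM on few reads. Usp10-207, a processed transcript of 459 bases that lies wholly inside exons of the coding Usp10-202, held 33.6% ± 6.05 of the gene's TPM on 4.92% of its counts, and Usp10-202 held 40.4% ± 4.35 on 76.8%. For Usp10 as a whole 49.7% ± 3.10 of the TPM lay on transcripts that are not protein-coding (adjusted p = 0.914), against 40.8% ± 7.18 in the second quantification. In Usp9x the incomplete coding transcript Usp9x-205, of 523 bases with 508 inside exons of Usp9x-201, held 28.4% ± 1.25 of the TPM on 1.48% of the counts. Usp9x-201, the complete one of 11887 bases, held 44.3% ± 1.37 on 89.0%. Usp34 was unlike these. Its incomplete coding transcript Usp34-205, of 11363 bases, held 45.5% ± 5.42 of the TPM on 55.8% of the counts. The complete Usp34-208, of 12200 bases, held 31.1% ± 5.79 on 40%. With complete coding transcripts only, Usp9x stood at 13.9 ± 2.63, Usp7 at 9.36 ± 2.12, Usp10 at 3.15 ± 0.979 and Usp34 at 1.99 ± 0.230 TPM, while Usp25 and Usp8 changed little, at 52.7 ± 15.0 and 28.6 ± 4.79 TPM. On that scale 33 members lay above the mark and 7 below. The calls that changed were those of Usp35, which lost its call, and Usp53, now below the mark at 0.537 TPM. The share of all genes called on that scale is not given here.

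Usp16, Usp35 and Usp37 came next, with 40.8% ± 4.91, 30.0% ± 7.01 and 26.3% ± 4.89 of their TPM on transcripts that are not protein-coding. Their coding transcripts were called above the others (for Usp16 log2 0.53 ± 0.290, adjusted p = 0.0202, lost without replicate 3 or replicate 4). In Usp16 these included retained-intron fragments of 358 and 502 bases that held 18.7% ± 8.13 and 16.2% ± 6.80 of the TPM on 1.49% and 2.41% of the counts. In Usp3 the share was 12.3% ± 4.15 in the first quantification and 49.7% ± 8.73 in the second, and the coding transcripts Usp3-202, Usp3-205 and Usp3-211 held 31.8% ± 6.42, 30.3% ± 4.87 and 25.6% ± 4.08 in the first. Usp25, Usp8, Usp12, Usp22, Usp39, Usp24, Usp38, Usp11 and Usp31 each had over 90% of their TPM on 1 complete coding transcript, from 94.7% ± 1.03 for Usp25 to all of it for Usp31. In the second quantification that transcript of Usp31 held 93.9% ± 8.95.

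Related members often differed widely in level (ratios are of TPM + 0.1). Usp25 exceeded Usp28, which has a similar catalytic domain, with log2 ratios of 6.00, 4.95, 5.49 and 6.06 in replicates 1 to 4. Usp12 exceeded Usp46, which binds the same WD-repeat partners, with ratios of 2.90, 3.01, 3.27 and 3.22. Usp22 exceeded Usp27x with ratios of 4.20, 3.90, 4.09 and 3.95. These contrasts had the same direction in all libraries, as did 13 of the 14 pairs in which both members were detected. Usp4 was lower than Usp15 (log2 ratio -0.91 ± 0.15), and so was Usp11 (-4.75 ± 0.23). Both ratios count the retained-intron transcripts of Usp15. With complete coding transcripts only, Usp15 averaged 3.17 ± 0.584 TPM, below Usp4 at 18.1 ± 4.01 and above Usp11 at 1.37 ± 0.261. Usp20 was lower than Usp33 (-2.41 ± 0.16), and Usp36 was lower than Usp42 (-0.98 ± 0.37), whereas Usp16 exceeded Usp45 (1.26 ± 0.10) and Usp7 exceeded Usp47 (0.58 ± 0.12). With complete coding transcripts only, the mean of Usp7, 9.36 ± 2.12 TPM, lay below that of Usp47, 12.2 ± 2.45. On that scale Usp16 stayed higher, at 6.95 ± 1.08 TPM against 4.18 ± 0.701 for Usp45. Usp53 over Usp54 had ratios of -0.40, 1.01, -0.33 and 0.65, with no common direction. With 4 libraries the exact two-sided sign-flip permutation test cannot reach 0.05. The 13 pairs had the smallest p this exact test allows (0.135 after adjustment over 14 pairs), and Usp53 over Usp54 gave p = 0.625.

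**Figure D5:**
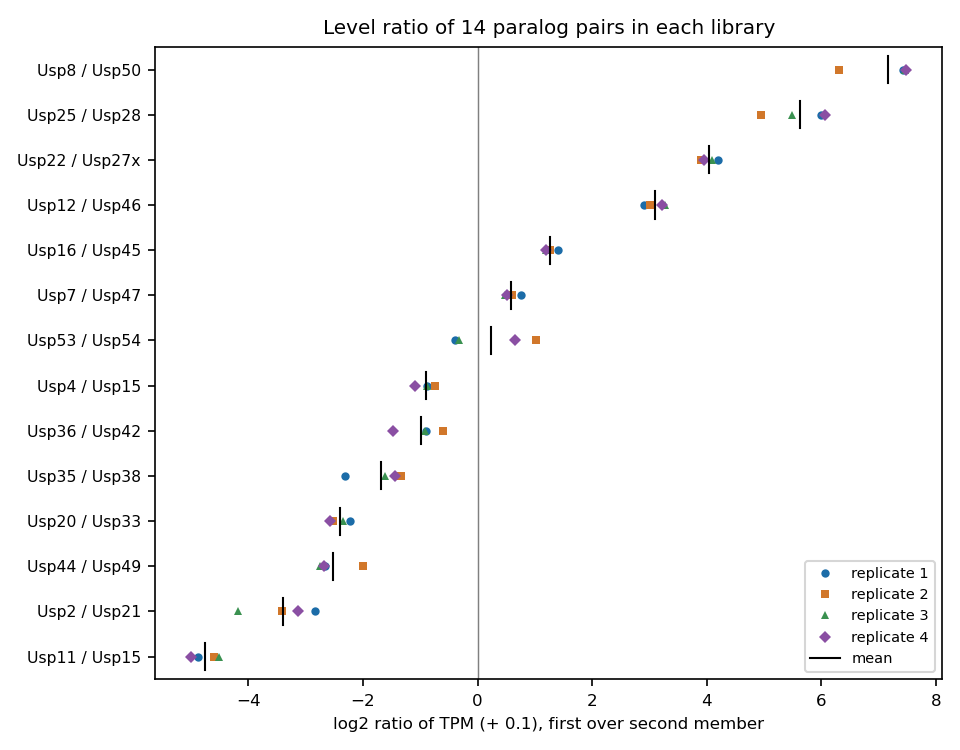
Log2 ratio of TPM + 0.1 for 14 pairs of related Usp genes, first over second, 1 point per library and a bar at the mean. The points of every pair but Usp53 / Usp54 lie on 1 side of 0, from Usp8 / Usp50 at a mean of 7.17 to Usp11 / Usp15 at -4.75.

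The spread between libraries, beyond counting error, was small for most members. The biological coefficient of variation (edgeR, TMM) had a median of 0.142 over the tested members (SD 0.097 between members), against 0.170 over protein-coding genes. With at least 200 summed counts it was 0.140 for 41 members, against 0.155 for protein-coding genes. The highest values belonged to members with few reads, Usp44 at 0.626, Usp50 at 0.479 and Usp2 at 0.364. Among members above 1 TPM the highest were Usp35 at 0.257, with 161 counts in replicate 1 and 394 to 457 in the others, and Usp10 at 0.220. The lowest were Usp3 at 0.116, Usp16 at 0.117 and Usp45 at 0.117. On count-based scaling replicate 2 was the lowest library for 21 of those 41 members and the highest for 1, with a median log2 deviation of -0.08. Neither the counts nor the deviation were computed over all genes, so they show nothing particular to the members.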

How the data were processed

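Gene-level expected counts and TPM with interval bounds, and transcript-level TPM and estimated counts of a second quantification, were used as deposited by the authors (mm10, GENCODE M21, per the labels and the file headers). Per the file lists deposited with each library, an alignment to the transcriptome underlies the gene table and a first transcript table, whereas the second quantification used the reads directly. No source used here names the tools or the strand setting. The members, role lists, pairs and related lists were chosen with earlier results of these data known. Per-library values were given by rule for the 3 highest members of each role list, members below the mark or without a call, members called in a comparison, and pairs described.

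Genes with at least 10 summed expected counts were tested on log2(TPM + 0.1) against 1 TPM, one-sided, with limma 3.58.1 in R 4.3.3 (variance trend). The quantifications were compared with limma treat (log2 difference of 1, mean of at least 1 TPM in either), and coding with other transcripts with limma against 0 (mean of at least 1 TPM). Limma p-values were Benjamini-Hochberg adjusted over all genes tested and the exact sign-flip p-values of related pairs over the 14 pairs. The limma and edgeR steps were checked on simulated data. Spread came from edgeR 4.0.16 on expected counts rounded to whole numbers, with DESeq2 1.42.0 size factors as an alternative. Rescaling divided TPM by the share of protein-coding genes. A count of 0 was given a limit of 3 counts. Transcripts were called complete where the annotated coding sequence has both ends. Alternatives covered the scale, quantification, pseudocount, filters and leaving out each library.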

Additional observations from a re-analysis of the deposited data

Results flagged for a closer look

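In 8 of 78 groups of 4 values, 1 library stood apart from the other 3 by Dixon's criterion. Of these groups 43 were of TPM and 35 of transcript shares. The criterion marks about 1 in 20 groups of independent, normally distributed values. Shares are bounded and some are 0, and all groups come from the same libraries. The rate over all genes was not computed, so no excess can be read from the count. Usp45 had 6.12 TPM in replicate 4, against 4.34 to 4.54 TPM in the others. That gap was seen on deposited TPM. On count-based scaling Usp45 stood at 40.2, 37.3, 39.2 and 41.4 in replicates 1 to 4, with replicate 4 near replicate 1. The other 7 groups concern the share of a gene's TPM on transcripts that are not protein-coding. In replicate 2 this share was 24.1% for Usp48, 28.7% for Usp28, 4.40% for Usp38 and 2.93% for Usp47, above the other libraries in each case. In replicate 1 it was 6.07% for Usp3, 0% for Usp33 and 0% for Usp11, below the other libraries. Usp3 had 14.1% to 14.8% and Usp33 18.5% to 19.1% in replicates 2 to 4. Replicate 2 had the smallest share of TPM on protein-coding genes, 25.3%. The part of depth and of that share in these values was not tested.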

How the results depend on the processing

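No comparison between groups, paired or not, was possible because all 4 libraries belong to 1 group. The comparisons of quantifications, transcript types and related members were paired within each library. With TPM rescaled to protein-coding genes, 2 members lay below 1 TPM and 0 had no call, with Usp2 at 2.00, Usp28 at 3.35, Usp54 at 2.33, Usp53 at 3.03, Usp27x at 1.91 and Usp49 at 1.97. In the second quantification 27 lay above, 11 below and 5 had no call, with Usp20 at 0.476, Usp11 at 0.520, Usp36 at 0.650, Usp35 at 0.710 and Usp31 at 0.777. That quantification rescaled gave 1 below and 1 without a call, with Usp50 at 1.64, Usp2 at 2.63, Usp28 at 4.26, Usp54 at 2.42, Usp53 at 4.17, Usp27x at 2.00 and Usp49 at 1.95. Posterior mean TPM put Usp20 at 1.91, Usp28 at 1.71 and Usp53 at 1.34, all called above, and Usp2 at 0.91 and Usp54 at 0.778 lost their calls, while a pseudocount of 1 put Usp28 at 1.01. With no filter on counts 11 members lay below and 5 had no call. Leaving out 1 library gave 32 to 34 above, 3 to 5 below and 4 to 6 without a call. Usp28 then ranged from 0.963 to 1.10 (without replicate 1) and Usp53 from 0.777 to 1.05 (without replicate 1). Counting complete coding transcripts only, an alternative chosen after seeing the data, gave 33 above. Members lower in the second quantification numbered 0 rescaled, 4 with a pseudocount of 1, 15 at a mean of at least 5 TPM, 0 with no filter, and 0 to 1 with a library left out. Rescaled, Usp3 was at 0.57 and Usp14 at 0.41. For transcript type, 2 members had other transcripts above and 8 no call with no filter, 20 had coding above at 5 TPM or more, and 2 to 4 had no call with a library left out. Usp7 then ranged from -0.15 (without replicate 3) to 0.15, with -0.03 without replicate 1, and Usp10 from -0.06 (without replicate 4) to 0.07. The ratio of Usp53 over Usp54 ranged from -0.02 (without replicate 2) to 0.45. Over all genes, those below 1 TPM numbered 5712 and 3453 rescaled or 44918 with no filter. Those lower in the second quantification numbered 442, against 104 rescaled, 1321 with a pseudocount of 1, 3159 at 5 TPM and 24 with no filter. Those higher numbered 229, against 97, 46 and 18 with a pseudocount of 1, at 5 TPM and with no filter. The cause of these shifts was not tested beyond what each alternative changes. Usp15 stayed called for its other transcripts wherever it was compared. Depth limits Usp44, Usp50 and the 5 untested members, and the division of reads among overlapping transcripts limits Usp15, Usp7, Usp10 and Usp9x. In Usp34 incomplete coding transcripts held 59.7% of the counts.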

Other observations

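Genes that work with the Usp members were measured in the same libraries. Of 20 genes listed for partner, activator and associated proteins 19 were tested, of which 17 lay above 1 TPM. The partners of Usp12 and Usp46 were present, with Wdr48 at 8.99 TPM and Wdr20 at 5.05, as were those of Usp8, with Stam at 6.16 and Stam2 at 11.9. The subunits shared by Usp22, Usp27x and Usp51 were at 11.3 TPM for Eny2 and 13.1 for Atxn7l3. For Usp10, the partners G3bp1 and G3bp2 were at 9.59 and 43.6 TPM. Caprin1 was the highest of the list at 93.1 TPM.

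Genes listed for the other deubiquitinase families were also mostly above the mark. The JAMM list mixes metalloproteases, which use zinc in place of a cysteine, with related subunits that lack the zinc site, such as Eif3h. It had 11 of 11 above 1 TPM, a median of 20.9 TPM, and Eif3h highest at 55.1 ± 7.04 (SD, n = 4). The OTU family had 12 of 14 tested genes above and 1 below, with the NF-kB inhibitor Tnfaip3 highest at 24.1 ± 8.49 and a median of 6.02. The UCH family had 3 of 4 above and 1 below, Uchl1 at 0.338 ± 0.0685, and the MINDY and ZUFSP families 4 of 5 above and 1 below. All 3 Josephin genes lay above, with a median of 7.16. Among genes with the same catalytic fold but another name, Cyld stood at 11.0 ± 2.29 and Pan2 at 0.940 ± 0.166. The Usp members' median of 6.50 TPM lay near that of the OTU family and below that of the mixed JAMM list. These medians are descriptions with no test.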
